A study of Mus musculus with 18 samples.

Results

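Immediate early genes are the genes a cell transcribes within minutes of a stimulus, before any new protein has been made. 9 of them were followed here by symbol, out of 17198 genes in the deposited table: Fos, Fosb, Fosl2, Junb, Jund, Egr1, Nr4a1, Ier2 and Dusp1. All 9 had a row and passed the filter on low values. RNA had been sequenced from neurons of the mouse dorsal root ganglion (DRG) in culture, which are sensory neurons with cell bodies next to the spinal cord. The cultures came from wild-type (WT) mice or from mice with the genotype Dynlrb1(tm1a/+), called HET here. HET animals carry a knockout-first insertion in 1 copy of Dynlrb1, which encodes a light chain of the dynein motor. RNA was taken at 12, 24 and 48 h in culture, with 3 biological replicates for each of the 6 groups and 18 samples in all. All groups share the culture itself, and no uncultured ganglion was among the samples. Age, sex and the pooling of animals are not given in the labels.

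The promoters of these genes are held ready by transcription factors such as SRF with its Elk partners, and CREB, which are switched on by MAP kinases and by calcium or cyclic AMP signals. Their products act next: Fos and Jun family proteins pair as the AP-1 transcription factor, Egr1 and Nr4a1 are transcription factors of other classes, and Dusp1 removes phosphate from MAP kinases and so closes the loop. In DRG neurons, injury to the axon and dissociation of the ganglion are both known to switch on members of this group.

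Sequences from the 250 bases upstream of the start sites of 4 of the genes hold the motif that CREB and related factors can bind, and are printed because these genes differ widely in how far they changed in culture. Capitals mark TGACG, the core of the cyclic AMP response element, or its complement CGTCA. Sequences are from RefSeq on GRCm38.p6, which has the coordinates of mm10, the build named in the submitters' processing notes. Each runs 5′ to 3′ on the strand of its gene. For Fos and Nr4a1 the whole window from -250 to -1 is shown. For Fosb and Dusp1 only 30 bases around a match are shown, from -72 to -43 and from -152 to -123.
Fos, chr12:85473640-85473889, plus strand: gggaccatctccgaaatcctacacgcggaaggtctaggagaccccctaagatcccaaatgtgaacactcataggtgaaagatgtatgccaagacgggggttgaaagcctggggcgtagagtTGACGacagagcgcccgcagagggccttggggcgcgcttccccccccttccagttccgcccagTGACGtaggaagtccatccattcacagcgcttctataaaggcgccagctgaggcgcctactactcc
Fosb, chr7:19310088-19310117, minus strand: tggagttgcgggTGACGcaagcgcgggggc
Nr4a1, chr15:101266596-101266845, plus strand: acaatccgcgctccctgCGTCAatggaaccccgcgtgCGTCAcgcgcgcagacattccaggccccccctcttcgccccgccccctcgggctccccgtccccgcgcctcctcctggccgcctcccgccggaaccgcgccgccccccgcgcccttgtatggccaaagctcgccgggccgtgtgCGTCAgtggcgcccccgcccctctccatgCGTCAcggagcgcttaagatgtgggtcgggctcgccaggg
Dusp1, chr17:26508595-26508624, minus strand: tagggcgggTGACGTCAccgcccggtcacg

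In the 250 bases before the RefSeq start site, searched on both strands, Fos held TGACG at -129 and -66, Fosb at -60 and Junb at -106. Nr4a1 held it at -233, -213, -69 and -40. Dusp1 held it at -191, -143 and -140, and the last of these overlap as the palindrome TGACGTCA. Fosl2 and Jund held none (0). Across all 32851 RefSeq promoters of the same length, 17.8% held TGACG at least once, 3.9% held it 2 or more times, 0.137% held it 4 or more times and 1.55% held TGACGTCA. The CArG box, which SRF binds, was searched in its strict form only, and was in 0 of the 7 windows and in 1.47% of all promoters. Bases further upstream than -250 were not searched, so these genes may still have a CArG box outside the windows. These counts describe letters in short windows and say nothing about binding. Promoters of Egr1 and Ier2 were not searched.

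In GENCODE M21 on GRCm38, Fos lies at chr12:85473890-85477273 on the plus strand and Fosb at chr7:19302696-19310051 on the minus strand. Fosl2 lies at chr5:32135801-32157842 and Nr4a1 at chr15:101254269-101274795, both on the plus strand, and the RefSeq start of Nr4a1 is inside that span. Junb lies at chr8:84974484-84978718 and Ier2 at chr8:84661331-84662852, both on the minus strand, with Jund at chr8:70698949-70700616 on the plus strand. Dusp1 lies at chr17:26505590-26562128 on the minus strand. Jund, Junb and Dusp1 overlap other annotated genes, and the Jund row carries 2 Ensembl identifiers. Whether the counting used strand is not given in the sources used here, so the values of these 3 genes are uncertain to that extent.

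The genotype labels were borne out by Dynlrb1, whose normalized count was 5229 to 6674 in the 9 WT cultures and 2716 to 4087 in the 9 HET cultures. All 10 sensory neuron markers checked were measured, and their summed normalized count was 397995 to 543274 across the 18 samples. In 17 of 18 samples the log2 profile was closest to the mean of a group of the same time. The exception was replicate 3 of HET at 48 h. It correlated at 0.993 with the WT mean at 24 h and at 0.991 with the HET mean at 24 h. With the HET and WT means at 12 h it correlated at 0.990 and 0.988. With the other HET cultures at 48 h it correlated at 0.984, and with the WT mean at 48 h at 0.973. The main tests that include it are also given without it. Sequencing depth is unknown, since the deposited values had been adjusted, so precision rests on the spread between replicates.

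In WT cultures, 6 of the 9 genes fell between 12 and 48 h: Fosb, Fos, Egr1, Nr4a1, Ier2 and, by a small amount, Fosl2. Junb, Jund and Dusp1 did not pass the test in this or any other comparison with all 18 cultures and no replicate block. A gene passed where limma gave an adjusted p under 0.05 after Benjamini-Hochberg adjustment over all 17198 genes. Of all genes, 17.1% fell and 30% rose by this test between the same times, so falls were the less common direction. The median log2 fold change was -1.16 over the 9 genes and 0.11 over all genes, where log2 fold changes are on the log2(normalized count + 1) scale. With the authors' other set of adjusted columns the all-gene median was 0.01 instead, and 6 of the 9 genes again fell.

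**Figure D1:**
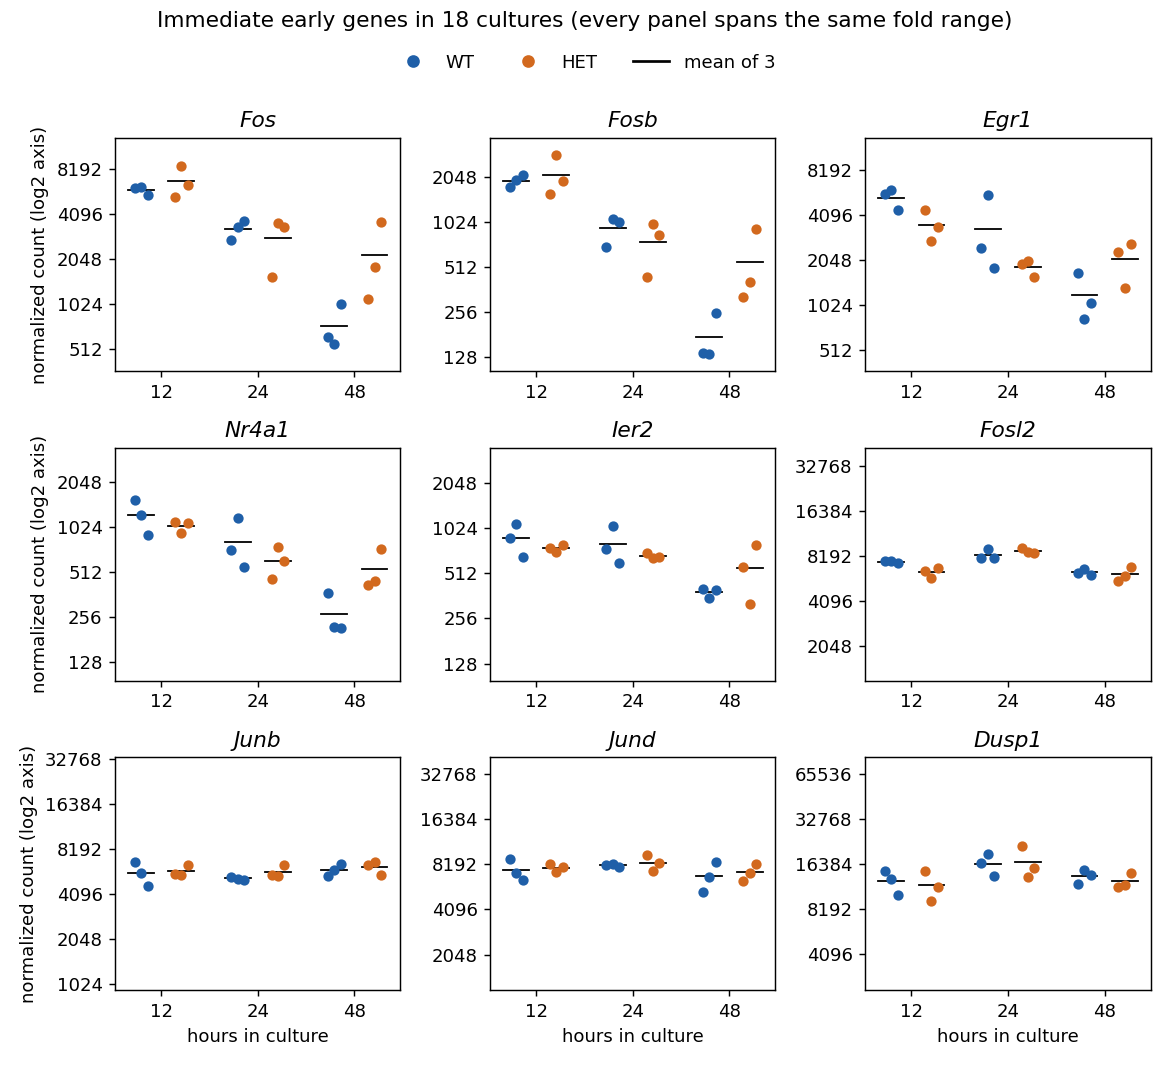
Normalized counts (log2 axis) of the 9 genes against hours in culture, with 1 point per culture, WT in blue, HET in orange and a bar at the mean of 3. Every panel spans the same fold range: Fos, Fosb, Egr1 and Nr4a1 drop over 48 h in WT, and Junb, Jund and Dusp1 stay within a narrow band.

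Fos and Fosb encode the Fos family members best known for transient induction. In the WT cultures the normalized count of Fos was 6097, 6212 and 5521 at 12 h, 2752, 3347 and 3682 at 24 h, and 617, 559.6 and 1033 at 48 h. No WT culture overlapped with a culture of another time. Of all genes, 8.94% were lower without overlap at 24 h than at 12 h in WT and 18.4% at 48 h than at 24 h, and the first of these steps of Fos did not pass (log2 fold change -0.87, limma adjusted p 0.166). From 12 to 48 h the change was -3.06 on the log2 scale (SE 0.36), an 8.36-fold fall (limma adjusted p 2.93e-05).

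Fosb had the widest range of the 9 genes, with a 12.2-fold ratio between its highest and lowest group means against 9.25-fold for Fos. Its normalized count in WT was 1758, 1954 and 2103 at 12 h, 697, 1073 and 1026 at 24 h, and 136, 133 and 252 at 48 h. The 3 times again did not overlap. From 12 to 48 h the log2 fold change was -3.54 (SE 0.36), an 11.6-fold fall (limma adjusted p 2.23e-05).

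Fosl2, a Fos family member with slower and longer-lasting expression, followed another course. Its WT counts were 7609.9, 7611 and 7438 at 12 h, 7975, 9163 and 8007 at 24 h, and 6332, 6698 and 6148 at 48 h. All 3 cultures at 48 h were below all cultures of the earlier times. From 24 to 48 h in WT, 18.4% of all genes were lower without overlap. Against 12 h the change was -0.24 on the log2 scale (SE 0.09, limma adjusted p 0.0304) and against 24 h it was -0.39 (SE 0.09, limma adjusted p 0.00568). The call against 12 h was lost when any of 5 WT cultures was left out (replicates 1, 2 and 5 at 12 h, 1 and 3 at 48 h), with adjusted p from 0.0504 to 0.0915. For this comparison the authors' deposited table lists a false discovery rate of 0.0789.

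Egr1, a zinc-finger transcription factor, fell as far as Nr4a1 in WT but with uneven cultures at 24 h. Its normalized counts were 5641, 5971 and 4399 at 12 h, 2446, 5566 and 1800.5 at 24 h, and 1683, 824 and 1053 at 48 h. Replicate 2 at 24 h lay within the range of 12 h, and the other cultures at 24 h lay between the ranges of 12 and 48 h. From 12 to 48 h it fell by 2.22 on the log2 scale (SE 0.34, limma adjusted p 0.000127). From 24 to 48 h it fell by 1.36 (SE 0.34, limma adjusted p 0.0101), a call lost without replicate 2 at 48 h (adjusted p 0.0564) or replicate 2 at 24 h (0.0594). Without the latter the step from 12 to 24 h moved from -0.86 to -1.33 and the later step to -0.89.

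Nr4a1, a nuclear receptor without a known classical ligand, had WT counts of 1549, 1243 and 909 at 12 h, 723, 1181 and 556 at 24 h, and 375, 221 and 217 at 48 h. The cultures at 48 h were below all others, while 12 and 24 h overlapped. From 24 to 48 h in WT, 18.4% of all genes were lower without overlap. The log2 fold change from 12 to 48 h was -2.20 (SE 0.29, limma adjusted p 4.74e-05), a 4.58-fold fall.

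Ier2 encodes a nuclear protein whose molecular role is less well defined. Its WT counts were 883, 1093 and 657 at 12 h, 744, 1070.5 and 604 at 24 h, and 405, 349 and 397 at 48 h. The log2 fold change was -0.13 from 12 to 24 h and -1.03 from 24 to 48 h (SE 0.26 for each), and the later step passed (limma adjusted p 0.00947). Without replicate 2 at 24 h these steps were -0.36 and -0.81, and the later one did not pass (limma adjusted p 0.0588). Over the whole span it was -1.16 (limma adjusted p 0.00169).

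Junb and Jund encode the Jun family partners of Fos. Junb was between 4613 and 6685 in the 9 WT cultures and between 5364 and 6728 in the 9 HET cultures, and its highest group mean was 1.20 times its lowest. Jund was between 5339 and 8906 in WT and between 6361 and 9412 in HET, a 1.23-fold range of group means. The WT log2 fold change from 12 to 48 h was 0.08 (SE 0.12) for Junb and -0.15 (SE 0.15) for Jund. In each case the difference was about the size of its error or less. From 24 to 48 h in WT, Jund was at -0.27 (limma adjusted p 0.181), and at -0.44 (limma adjusted p 0.0346) without replicate 3 at 48 h.

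Dusp1, the MAP kinase phosphatase, was 14786, 12999.7 and 10256 at 12 h in WT, 16711, 19202 and 13628 at 24 h, and 12136, 14997 and 13941 at 48 h. In HET it was 14824, 9236 and 11604, then 21639, 13555 and 15406, then 11539, 11926 and 14261. The mean at 24 h was the highest in both genotypes, but the times overlapped. The log2 fold change from 12 to 24 h was 0.38 (SE 0.19, limma adjusted p 0.258) in WT and 0.50 (SE 0.19, limma adjusted p 0.0745) in HET. The HET value passed without replicate 1 at 12 h (0.68, limma adjusted p 0.0304) or replicate 2 at 24 h (0.65, limma adjusted p 0.0402), and was 0.33 without replicate 2 at 12 h and 0.31 without replicate 1 at 24 h.

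Between 24 and 48 h in WT, 6 of the 9 genes fell, the ones named above for 12 to 48 h, where 10.3% of all genes fell. Log2 fold changes over this step were -2.19 for Fos, -2.46 for Fosb and -1.57 for Nr4a1, with a limma adjusted p of 0.00343 for each. Between 12 and 24 h none (0) of the 9 genes passed, where 3.62% of all genes did and 3688 genes had an unadjusted p under 0.05. The lowest limma adjusted p was 0.0976, for Fosb at a log2 fold change of -1.08. The authors' deposited table lists a false discovery rate of 0.0374 for Fosb over this step.

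In HET cultures, 3 of the 9 genes had already passed at 24 h. Between 12 and 24 h, Fos and Fosb fell and Fosl2 rose, where 5.76% of all genes fell and 13.1% rose. The authors' deposited table lists false discovery rates under 0.05 over this step for Egr1 (0.0218), Nr4a1 (0.0303) and Dusp1 (0.0448) too, which did not pass here. By 48 h, 3 of the 9 genes were lower than at 12 h, namely Fos, Fosb and Nr4a1, where 3.62% of all genes fell. Without replicate 3 at 48 h, Ier2 joined them and 8.61% of all genes fell.

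Fos counts in HET were 5362, 8634 and 6435 at 12 h, 1556, 3573 and 3362 at 24 h, and 1106, 1831 and 3619.9 at 48 h. Replicate 3 at 48 h was higher than every culture at 24 h, and the other 2 cultures at 48 h were lower than 2 of the 3 at 24 h. Against 12 h it fell by 1.33 on the log2 scale (SE 0.36, limma adjusted p 0.0167) at 24 h and by 1.78 (SE 0.36, limma adjusted p 0.0124) at 48 h. Without replicate 3 at 48 h the fall to 48 h was -2.23 (limma adjusted p 0.000294).

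Fosb in HET followed Fos closely. Its counts were 1583, 2875 and 1918 at 12 h, 438, 989 and 843 at 24 h, and 322, 405 and 922 at 48 h. Against 12 h its change was -1.52 on the log2 scale (SE 0.36, limma adjusted p 0.00912) at 24 h and -2.06 (SE 0.36, limma adjusted p 0.0121) at 48 h, or -2.51 (limma adjusted p 0.000172) without replicate 3 at 48 h. The 24 h calls of Fos and Fosb were lost without HET replicate 2 at 12 h (adjusted p 0.0929 and 0.0642) or replicate 1 at 24 h (0.0880 and 0.0518). Their 48 h calls were lost without HET replicate 2 at 12 h or replicate 1 or 2 at 48 h, with adjusted p from 0.0627 to 0.0811.

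Fosl2 in HET was 6544, 5871 and 6824 at 12 h, 9359, 8726 and 8607 at 24 h, and 5616, 6062 and 6928 at 48 h. The cultures at 24 h stood above all the others, and the share of all genes separated in this way in HET is not given here. Fosl2 rose by 0.47 (SE 0.09, limma adjusted p 0.00252) on the log2 scale to 24 h. From 24 to 48 h it fell by 0.53 on the log2 scale (SE 0.09, limma adjusted p 0.0198). It was the only gene of the 9 to pass over that step, where 1.08% of all genes passed as lower. That call was lost without HET replicate 1 at 24 h, or replicate 1 or 2 at 48 h (adjusted p 0.0732, 0.149 and 0.0766). Without replicate 3 at 48 h the value was -0.61 (limma adjusted p 0.000223). Over the same step Fosb was at -0.53 (SE 0.36, limma adjusted p 0.454) and Fos at -0.45 (SE 0.36, limma adjusted p 0.537). Without replicate 3 at 48 h, Fosb was at -0.98 (limma adjusted p 0.0573) and Fos at -0.90 (limma adjusted p 0.0730). With all cultures, Egr1 (0.14) and Junb (0.11) went the other way.

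Egr1 in HET was 4422, 2724 and 3404 at 12 h, 1907, 2009.7 and 1572 at 24 h, and 2313, 1324 and 2608 at 48 h. Both later times lay below 12 h in every culture, again without a share over all genes to compare. Neither passed, with log2 fold changes of -0.92 (limma adjusted p 0.0713) at 24 h and -0.79 (limma adjusted p 0.127) at 48 h. The 48 h value was -0.98 (limma adjusted p 0.0638) without replicate 3 and -0.49 without replicate 2.

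Nr4a1 in HET was 1115, 941 and 1094 at 12 h, 463, 758 and 609.6 at 24 h, and 424, 445 and 737 at 48 h. The later times overlapped each other and not 12 h, again without a share over all genes to compare. The log2 fold change at 48 h was -1.01 (SE 0.29, limma adjusted p 0.0316), and the call was lost without any of the 3 cultures at 12 h or replicate 1 or 2 at 48 h (adjusted p 0.0663 to 0.147). Without replicate 3 at 48 h it was -1.27 (limma adjusted p 0.00537).

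Ier2 in HET was 760.2, 712 and 792 at 12 h, 699.8, 647 and 656 at 24 h, and 564, 318 and 794 at 48 h. Replicate 3 at 48 h was as high as any culture at 12 h. The log2 fold change at 48 h was -0.53 (limma adjusted p 0.170) with all cultures and -0.83 (limma adjusted p 0.0182) without replicate 3. Without replicate 2 it was -0.17 (limma adjusted p 0.677).

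**Figure D2:**
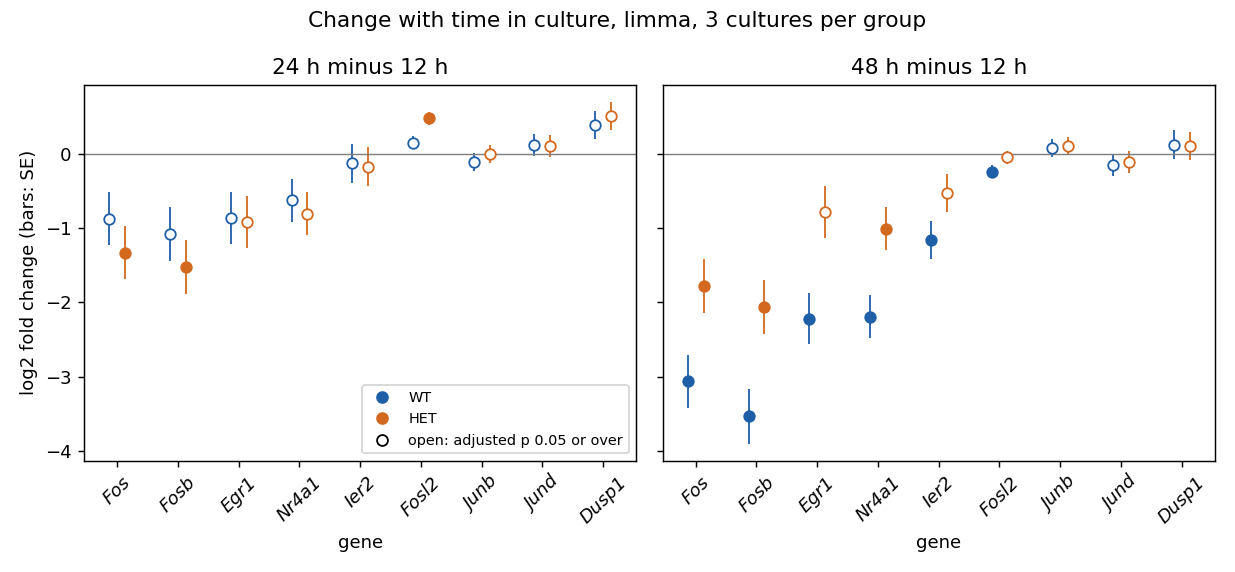
Log2 fold change of each gene from 12 to 24 h (left) and from 12 to 48 h (right), WT in blue and HET in orange, with bars of 1 SE and open symbols where the limma adjusted p was 0.05 or over. At 48 h the WT values of Fos, Fosb, Egr1 and Nr4a1 lie between -3.54 and -2.20 and the HET values between -2.06 and -0.79.

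Other cell types moved with time in culture. The summed normalized count of 7 fibroblast markers was 5629 to 12666 at 12 h and 18876 to 29980.0 at 48 h in WT, and 6147 to 9894 and 13471 to 28228 in HET. The sum of the 6 measured of 10 blood markers was 325 to 6609.6 at 12 h and 83.3 to 134 at 48 h in WT, and all 6 passed as lower. In HET the blood sum was 2871 to 7066 at 12 h and 128, 212 and 2027 at 48 h, the highest being replicate 3. The sum of 5 endothelial markers in WT was 8430.4 to 10662 at 12 h and 4022 to 5645 at 48 h, and 3 of the 5 passed as lower. The sum of 10 glial markers was 44379 to 55106 at 12 h and 41234 to 42300 at 48 h in WT, and 48758 to 53729 and 39574 to 46694 in HET, without overlap in either. Single glial markers went both ways in WT, where 2 passed as higher and 3 as lower, while in HET 0 passed as higher and 2 as lower. The sum of the 6 measured of 7 macrophage markers was 1084 to 1847 at 12 h and 1868 to 3118 at 48 h in WT, again without overlap, and 1093 to 1504 and 1282 to 1714 in HET. Yet in WT 1 of these 6 markers passed as higher and 2 as lower, so the sum does not stand for each marker. Between these times in WT, 30% of all genes rose and 17.1% fell, against 10.6% and 3.62% in HET. None of the measured markers was at 0 in any sample, but no deposited value of any gene was 0, so this does not show that a cell type was present. The part of these cell types in the changes of the 9 genes was not tested. In these mixed cultures, fewer cells of a type and less RNA per cell cannot be told apart.

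Between genotypes, none (0) of the 9 genes passed at 12, 24 or 48 h or averaged over the times. Over all genes the share that passed was 0.00581% at 12 h, 0.00581% at 24 h, 0% at 48 h and 0.0174% for the average. Dynlrb1 itself passed at 24 h (limma adjusted p 0.0390) and for the average (limma adjusted p 2.85e-05). It did not pass at 12 h (log2 fold change -0.78, limma adjusted p 0.0655) or at 48 h (-0.84, limma adjusted p 0.0501). A gene that did not pass is therefore not shown to be equal between genotypes. Unadjusted p was under 0.05 for 1447 genes at 12 h, 198 at 24 h, 3782 at 48 h and 2315 for the average. At 12 h the limma adjusted p of the 9 genes was at least 0.577, and Fosl2 alone did not overlap between the groups, being lower in HET at a log2 fold change of -0.24, where 8% of all genes were lower without overlap. At 24 h it was 1.0 for all 9, and Junb alone did not overlap, being higher in HET (log2 fold change 0.15), where 2.81% of all genes were higher without overlap.

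At 48 h the values of Fos, Fosb and Nr4a1 were higher in the lowest HET culture than in the highest WT culture, 3 of 9 genes where 9.57% of all genes showed this. Fos was 617, 559.6 and 1033 in WT and 1106, 1831 and 3619.9 in HET. HET minus WT on the log2 scale was 1.45 (SE 0.36, limma adjusted p 0.0543) for Fos, 1.57 (SE 0.36, limma adjusted p 0.0516) for Fosb and 0.98 (SE 0.29, limma adjusted p 0.0772) for Nr4a1. Egr1 was at 0.82 (SE 0.34, limma adjusted p 0.181) and Ier2 at 0.45 (SE 0.26, limma adjusted p 0.320), and for both genes the groups overlapped. Fosl2, Junb, Jund and Dusp1 were between -0.12 and 0.11.

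Same-numbered WT and HET cultures at 48 h deviated together from their group means, and with the replicate number as a block Fos, Fosb and Nr4a1 passed. Their limma adjusted p was then 0.00322, 0.00162 and 0.0423, 3 of 9 genes where 4.34% of all genes rose. That block assumes that a number has the same effect at all times. The pairing check did not bear this out at 12 or 24 h, where replicate 2 of HET and WT correlated at 0.03 and -0.21. With a separate block for each number within each time, an alternative chosen after seeing the data, Egr1 passed too, at 0.0368. In that fit 4 of 9 genes rose where 5.04% of all genes did. The authors' deposited table lists log2 fold changes at 48 h of 1.57 for Fos, 1.66 for Fosb, 0.98 for Nr4a1 and 0.81 for Egr1. The false discovery rates in the authors' deposited table were 0.000437, 0.000425, 0.0162 and 0.103 in that order.

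Replicate 3 had the highest HET value of each of these 3 genes. Without it, HET minus WT was 1.0 on the log2 scale (SE 0.32, limma adjusted p 0.251) for Fos, 1.12 (SE 0.33, limma adjusted p 0.251) for Fosb and 0.73 (SE 0.30, limma adjusted p 0.357) for Nr4a1. For Egr1 it was 0.63 (SE 0.38) and for Ier2 0.15 (SE 0.24), while without HET replicate 2 Ier2 was at 0.80 (limma adjusted p 0.0569). Averaged over the times, Fos was at 0.45 and Fosb at 0.43 with all cultures, and at 0.30 and 0.28 without replicate 3. Leaving out WT replicate 3 at 48 h, the WT culture with the highest Fos and Fosb, moved the other way, to 1.72 for Fos and 1.87 for Fosb (limma adjusted p 0.0277 and 0.0242). Fos and Fosb also passed without HET replicate 1 at 24 h or at 48 h, and Fosb alone without HET replicate 2 at 12 h or at 48 h, at adjusted p from 0.0387 to 0.0493. The blood marker sum was also highest in HET replicate 3, at 2027 against 128 and 212 in the other HET cultures and 83.3 to 134 in WT at 48 h. Its part in the difference was not tested.

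**Figure D3:**
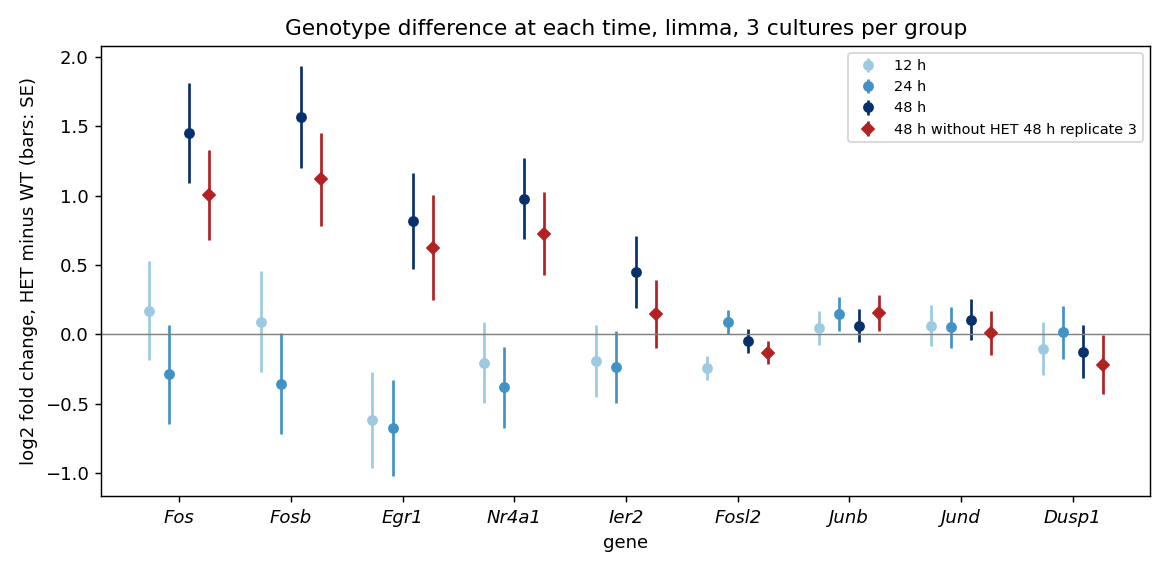
Log2 fold change of HET minus WT for each gene at 12, 24 and 48 h (light to dark blue), and at 48 h without HET replicate 3 (red diamonds), with bars of 1 SE. Fos, Fosb and Nr4a1 are at 1.45, 1.57 and 0.98 at 48 h with all cultures and at 1.0, 1.12 and 0.73 without replicate 3.

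Whether the genotypes differed in their change over time was tested directly, as the difference between HET and WT in each time step. From 12 to 24 h, from 12 to 48 h and from 24 to 48 h, none (0) of the 9 genes passed, with 0% of all genes passing in each. Unadjusted p was under 0.05 for 370 genes from 12 to 24 h, 1534 from 12 to 48 h and 2749 from 24 to 48 h. From 12 to 48 h the difference was 1.28 (SE 0.51) for Fos, 1.48 (SE 0.52) for Fosb, 1.43 (SE 0.49) for Egr1 and 1.18 (SE 0.41) for Nr4a1, each with a limma adjusted p of 0.548. Without HET replicate 3 at 48 h these values were 0.83, 1.03, 1.24 and 0.93, each with a limma adjusted p of 0.772. From 24 to 48 h it was 1.74 for Fos, 1.92 for Fosb, 1.49 for Egr1 and 1.36 for Nr4a1, with limma adjusted p from 0.180 to 0.191. Without that culture they were 1.29, 1.47, 1.30 and 1.11. A positive value means that the log2 fold change over the step was higher in HET than in WT. From 12 to 48 h these 4 genes went down in both genotypes, so this was a smaller fall in HET. From 24 to 48 h in HET, Egr1 did not fall, at 0.14 (SE 0.34, limma adjusted p 0.872), or -0.06 without replicate 3 at 48 h.

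On the length-scaled FPKM scale, on which genes can be compared with each other, the order of levels changed as the inducible genes fell. At 12 h in WT, Dusp1 was highest at 157 ± 28.3 FPKM (SD, n = 3), well clear of the rest. Junb at 74.1 ± 13.6, Fos at 68.4 ± 4.26 and Jund at 63.1 ± 10.4 FPKM (SD, n = 3 each) followed, with overlapping ranges. Below them, without overlap, came Egr1 at 41.9 ± 6.50 and Fosl2 at 31.0 ± 0.409 FPKM (SD, n = 3 each). Ier2 at 13.9, Fosb at 12.4 and Nr4a1 at 12.0 FPKM overlapped at the bottom.

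At 48 h in WT, Dusp1 was at 170 ± 17.9 FPKM, Junb at 77.6 ± 6.87 and Jund at 57.2 ± 13.1 (SD, n = 3 each), with Junb and Jund overlapping. Fosl2 came next at 26.3 FPKM. Fos had dropped to 8.47 ± 2.97 FPKM (SD, n = 3), overlapping with Egr1 at 9.31 ± 3.49 (SD, n = 3). Ier2 at 6.07, Nr4a1 at 2.64 and Fosb at 1.11 FPKM then followed, each without overlap with the next. In HET at 48 h, Fos was at 25.1 ± 14.9 FPKM (SD, n = 3) and overlapped with both Fosl2 at 25.5 and Egr1 at 16.3, and no neighbours from Fosl2 down were separated.

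**Figure D4:**
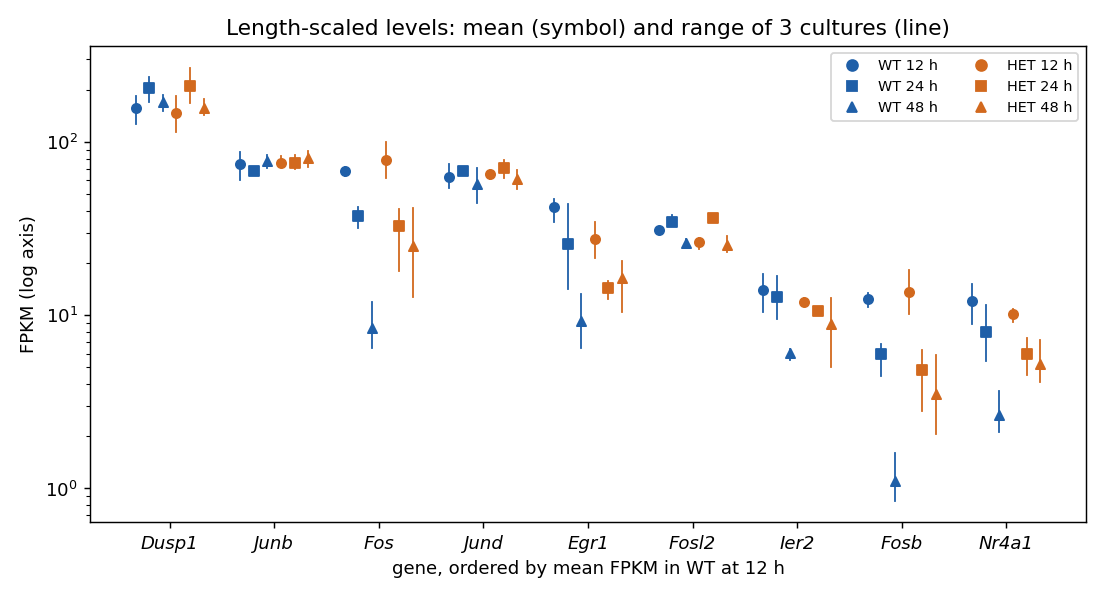
FPKM (log axis) of the 9 genes, ordered by the WT mean at 12 h, with a symbol at the mean of 3 cultures and a line over their range, WT in blue, HET in orange, and circle, square and triangle for 12, 24 and 48 h. Dusp1 is the highest in all 6 groups, while Fos in WT goes from 68.4 at 12 h to 8.47 at 48 h.

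Within groups, the 9 genes did not vary as a single block. The deviations of the 18 cultures from their group means correlated at r = 0.958 between Fos and Fosb. Among Egr1, Nr4a1 and Ier2 the values were 0.777 for Egr1 with Nr4a1, 0.788 for Egr1 with Ier2 and 0.636 for Nr4a1 with Ier2. Between Fos and Egr1 it was -0.02, and between Fos and Nr4a1 0.37. Dusp1 went most with Jund (0.673) and Fosl2 (0.663). These are descriptions over 18 cultures, with all 9 genes measured in the same libraries, and no test was made of them.

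The genes most like the 9 in their course over the 18 samples were ranked by Pearson correlation among 12468 genes with a mean normalized count of at least 100. With the mean of the 9 standardized profiles, Rela, a subunit of NF-κB, was closest at 0.978, followed by the kinase Pim3 at 0.965 and the transcription factor Klf4 at 0.953. Mfng, Slc30a1, Dll4, Zfp36, Omp, Galnt15 and Cxcr4 completed the 10, down to 0.938. With Fos alone, Serpina3n was closest at 0.985, and the transcription factor Cebpd (0.980) was also among the 10 closest. Pla2r1, Ppp3ca, Prmt8, Gria4, Gtdc1, Pigz and Sostdc1 were among them too, down to 0.974. Cebpd had a mean normalized count of 1814 at 12 h and 412 at 48 h in WT, and 1808 and 839 in HET.

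A list of 40 other immediate early genes, all measured, mostly fell in WT. Between 12 and 48 h, 26 of the 40 fell, 5 rose and 9 did not pass, where 17.1% of all genes fell and 30% rose, with a median log2 fold change of -0.70 against 0.11 over all genes. The largest falls were in Zfp36, which encodes a protein that destabilises messenger RNAs (-1.79), the nuclear receptor Nr4a3 (-1.75), Egr4 (-1.65) and Zfp36l1 (-1.63). The largest rises were in Id1, an inhibitor of basic helix-loop-helix factors (1.37), Klf10 (0.89), Ier5l (0.78) and Rgs2 (0.58). Zfp36 averaged 1864 ± 425 at 12 h and 531 ± 73.3 at 48 h (normalized count, SD, n = 3 each). With the other adjusted columns 30 fell and 4 rose, where 21.9% of all genes fell and 24.3% rose.

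In HET the same list had 5 falls, 2 rises and 33 genes that did not pass between 12 and 48 h, with a median of -0.28 against 0.10 over all genes, where 3.62% of all genes fell and 10.6% rose. Fosl1 (-0.88), Zfp36 (-0.84), Myc (-0.58) and Klf6 (-0.47) fell most, and Id1 (1.0) and Ier5l (0.73) rose. Without replicate 3 at 48 h there were 15 falls and 3 rises, where 8.61% of all genes fell and 19.8% rose. With the other adjusted columns there were 9 falls and 1 rise, where 5.38% of all genes fell and 5.81% rose. At 48 h none (0) of the 40 differed between genotypes, with a median HET minus WT of 0.25 against -0.03 over all genes, or 0.05 without replicate 3. With the replicate block 3 were higher and 1 was lower, where 4.34% of all genes were higher and 6.07% lower. The difference between genotypes in the change from 12 to 48 h passed for none (0) of the 40.

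**Figure D5:**
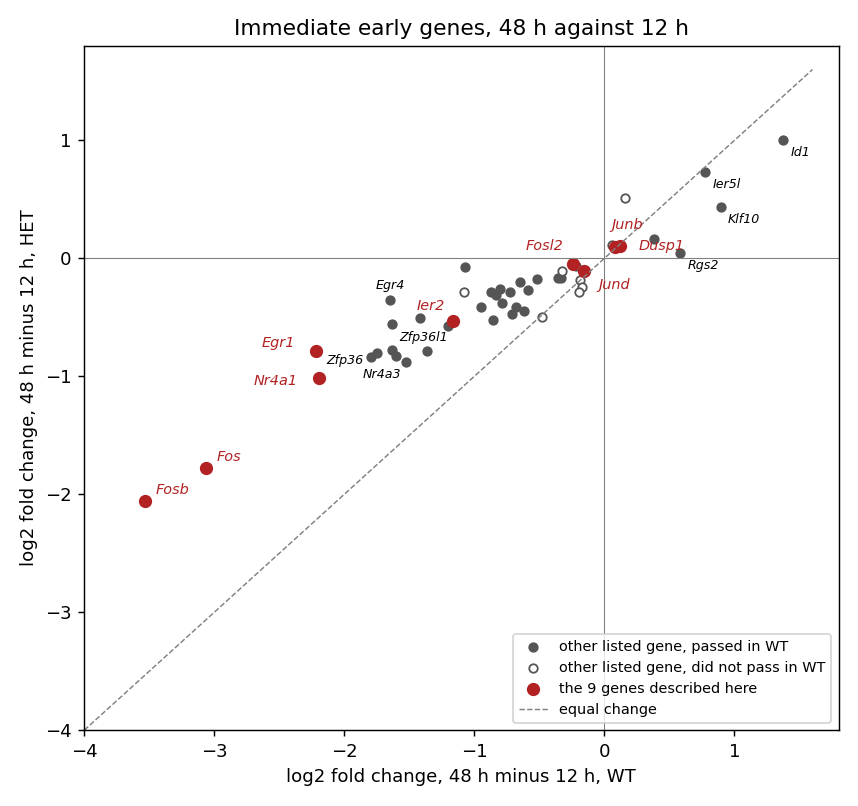
Log2 fold change from 12 to 48 h in HET against that in WT, for the 9 genes (red) and 40 other immediate early genes (grey, filled where they passed in WT), with a dashed line of equal change. Fos lies at -3.06 in WT and -1.78 in HET, and Zfp36 at -1.79 and -0.84.

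Dusp1 belongs to a wider group of phosphatases and inhibitors that restrain MAP kinase signalling, and 17 others of them were measured. Between 12 and 48 h in WT, 4 of the 17 rose and 7 fell, where 30% of all genes rose and 17.1% fell, so rises were no more frequent than over all genes. Dusp9 rose most (2.97), from 116 ± 46.8 to 925 ± 461 normalized counts (SD, n = 3 each), followed by Spred3 (1.05), Dusp14 (1.0) and Dusp4 (0.53). Spry1 (-0.81), Spred2 (-0.73), Dusp8 (-0.72) and Spry4 (-0.66) fell most. In HET only Dusp9 passed (2.02), at 68.1 ± 23.5 and 279 ± 94.2 normalized counts (SD, n = 3 each), where 10.6% of all genes rose and 3.62% fell. Leaving out replicate 3 at 48 h, 3 rose and 1 fell, where 19.8% of all genes rose and 8.61% fell.

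Of 35 kinases and promoter-bound factors that act upstream of these genes, all measured, 8 rose and 14 fell between 12 and 48 h in WT, where 30% of all genes rose and 17.1% fell. The median log2 fold change was -0.17. The Ets factor Elk3 (1.04), the kinases Rps6ka1 (0.84) and Rps6ka4 (0.60) and the CREB relative Crem (0.74) rose most. Elk4 (-0.89), the neuronal kinase Mapk10 (-0.79), Atf1 (-0.77) and Rps6ka3 (-0.73) fell most. In HET, Elk3 (0.68) and Rps6ka4 (0.39) rose and Mapk10 (-0.39) fell, where 10.6% of all genes rose and 3.62% fell. There were 5 rises and 3 falls without replicate 3 at 48 h, where 19.8% of all genes rose and 8.61% fell.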

How the data were processed

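RNA-seq values of 18 DRG neuron cultures were taken from 1 deposited table, with groups and replicate numbers from the sample titles (1, 2 and 5 at 12 and 24 h, 1, 2 and 3 at 48 h). The submitters' processing notes name CASAVA 1.8.2, edgeR and build mm10. The aligner, counting method and gene annotation are not given in the sources used here. Per the file headers, the authors deposited normalized counts, used here as a signal: no value was whole or 0, and the column totals ran from 41509705 to 41509874. The authors also deposited a further set of adjusted signal columns, which lack 2 directions among the samples, as well as FPKM values, log2 fold changes and false discovery rates (a kind of p-value). The step that adjusted the values is not given in the sources used here, depth is unknown, and no interval or detection limit was computed.

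From these, log2(normalized count + 1) was fitted with limma 3.58.1 in R 4.3.3 (lmFit, then eBayes with a trend), with 1 coefficient per group over all 18 samples. This left 12 residual and 4.97 prior degrees of freedom. A minimum mean of 1 per gene removed 0 of 17198. Benjamini-Hochberg adjustment ran over all genes in each of 13 comparisons, of which the difference between genotypes from 24 to 48 h was added after seeing the data. The fit was tested on simulated data. Fold changes understate changes of low genes. Each p-value sets a difference against the spread between cultures of a group, pooled over the 6 groups and drawn towards the trend over all genes. That spread is the one left in the deposited values after their adjustment.

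The 9 genes and all lists were chosen with earlier results of these data known. Beside the 9, up to 4 genes per direction were named from each list by the largest change among those that passed, and 10 genes by correlation with the 9 and 10 by correlation with Fos. The lists held 40 other immediate early genes, 17 phosphatases and feedback inhibitors, 35 upstream kinases and promoter-bound factors, and 6 sets of cell type markers. Levels between genes were compared in FPKM. Promoters came from RefSeq (GRCm38.p6), with 7 of the 9 genes matched, and gene positions from GENCODE M21.

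Pairing was checked through the titles' replicate numbers, as the correlation across genes of the deviations from group means. For HET and WT at 48 h it was over 0.1 in each of the 3 pairs (0.209 to 0.461), so results with the number as a block stand beside that comparison. In every other comparison at least 1 pair was at or below 0.1. Alternatives covered the block, the missing directions as covariates, the other columns, a pseudocount of 0.1, no filter, a minimum mean of 5, only the groups compared, and leaving out each culture. A gene among those most like Fos is not reported here.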

Additional observations from a re-analysis of the deposited data

How the results depend on the processing

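Counts of the 9 genes that passed are given against the values in the results. For HET minus WT at 48 h (0), the replicate block gave 3, the block within time, chosen after seeing the data, gave 4, and leaving out single cultures gave 0 to 2. For HET minus WT averaged over the times (0), the block within time gave 1. For 24 h minus 12 h in WT (0), the block and the fit of only the groups compared each gave 2, and leaving out single cultures gave 0 to 1. For 24 h minus 12 h in HET (3), both gave 5, and leaving out single cultures gave 1 to 5. For 48 h minus 12 h in HET (3), the block gave 5, only the groups compared 0, and leaving out single cultures 0 to 4. For 48 h minus 24 h in HET (1), these were 3, 0 and 0 to 1. For the difference between HET and WT from 24 to 48 h (0), the block gave 2 (Fos and Fosb, limma adjusted p 0.0236 and 0.0152) and the block within time gave 4. In WT, 5 to 6 genes passed from 12 to 48 h and 4 to 7 from 24 to 48 h under the alternatives. The fits of only the groups compared have fewer samples. Otherwise the cause was not tested. In all comparisons but HET against WT at 48 h, the numbers are shared labels and not shown to pair the cultures. With the block, 16 of the 40 other immediate early genes fell and 2 rose from 12 to 48 h in HET, against 5 and 2 without it.

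The missing directions as covariates, the other columns, the other pseudocount and the other filters left each of these counts on the same side. Of 890 alternatives for 35 results on single genes, Dynlrb1 included, 839 kept their direction and call, 30 lost the call, 21 gained it and 0 changed direction. Each group has its own coefficient, so leaving out a culture of a group not compared cannot change the fold change. Such fits tested the call and not the direction. Fos in HET minus WT at 48 h stayed at 1.45 without HET replicate 1 at 24 h (limma adjusted p 0.0464), and with either block. In the other columns, 4177 genes rose and 3760 fell from 12 to 48 h in WT, against 5152 and 2946 in the columns used, and 999 rose and 926 fell in HET, against 1820 and 622. Depth is unknown, 3 cultures per group limit precision, and the 2 directions missing from the other columns were not taken off the degrees of freedom.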
